A study of Mus musculus with 6 samples.

Results

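Interferon response genes are the genes that cells switch on when interferon reaches them, and 39 of them were named for this description by gene symbol. A gene was taken as measured where a probe set carried its symbol and no other, and 32 of the 39 genes met that rule, each with 1 probe set out of 23332. Ifit3, Oas1a, Oas3 and Eif2ak2 occurred only in probe sets that also carry other symbols, and Isg15, Usp18 and Ifi44 had no entry in the annotation used, so these 7 genes were not analysed here. The tissue was olfactory epithelium of C57Bl/6 mice, the nasal lining that holds the odour-sensing neurons, taken 5 days after 1 nostril had been closed (unilateral naris occlusion). The occluded group holds 3 arrays of the epithelium on the closed side. The contralateral group holds 3 arrays of the epithelium on the open side, which the labels mark as the control but also describe as receiving more odour stimulation, so it was not an untreated nose. Both sides came from 3 operated mice, with no genetic change in either group, and the labels do not tie an occluded array to a contralateral one by mouse. P-values therefore measure the spread between these arrays.

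Interferons are secreted proteins released when a cell senses viral nucleic acid or when lymphocytes are activated. Type I interferons bind the receptor Ifnar1/Ifnar2 and switch on, with Stat2 and Irf9 among the factors that act, genes with an interferon-stimulated response element (ISRE) in their promoter. Interferon gamma binds Ifngr1/Ifngr2 and acts at the gamma-activated site (GAS). The induced proteins degrade or hide viral RNA, block viral entry and exit, and raise antigen presentation, and in a barrier tissue such as the nasal lining a low constant level of many of them is usual.

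The promoters were searched for the ISRE and the GAS, independent of the expression values. RefSeq promoter windows (GRCm38.p6, 250 bases before to 50 after an annotated transcript start) were found for 30 of the 39 genes; Mx1, Mx2, Oas2, Zbp1, Usp18, Dhx58, Tap2, Parp9 and Parp14 had none in the table. The ISRE core, spelled as GAAA, any pair of bases and GAAA again, and searched on both strands, matched in 15 of the 30 genes, or 50%, against 3.99% of all 27025 genes in the table and 3.44% of its 32851 windows. The GAS, TTCNNNGAA, which reads the same on both strands, matched in 10 of the 30, or 33.3%, against 9.55% of all genes and 8.3% of windows. The 2 motifs can overlap in part, as they do in Bst2 and Ifitm3. Because these genes are named for being interferon-induced, the counts describe the list, and a match is a run of letters and not a shown binding site. The 4 windows below belong to the measured genes with an ISRE match that had the smallest p-values in the expression comparison, and capitals mark the ISRE core, on either strand. Rsad2 lies at chr12:26456403-26456702 on the minus strand, Ifitm3 at chr7:141010695-141010994 on the minus strand, Bst2 at chr8:71537423-71537722 on the minus strand and Gbp3 at chr3:142559794-142560093 on the plus strand, and each is printed in the direction of its gene.
Rsad2: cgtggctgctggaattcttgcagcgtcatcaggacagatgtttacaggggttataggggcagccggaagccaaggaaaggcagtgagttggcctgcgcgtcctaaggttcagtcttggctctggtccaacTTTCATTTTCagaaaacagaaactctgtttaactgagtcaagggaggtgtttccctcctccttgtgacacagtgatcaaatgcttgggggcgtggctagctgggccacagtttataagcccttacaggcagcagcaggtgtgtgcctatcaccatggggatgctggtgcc
Ifitm3: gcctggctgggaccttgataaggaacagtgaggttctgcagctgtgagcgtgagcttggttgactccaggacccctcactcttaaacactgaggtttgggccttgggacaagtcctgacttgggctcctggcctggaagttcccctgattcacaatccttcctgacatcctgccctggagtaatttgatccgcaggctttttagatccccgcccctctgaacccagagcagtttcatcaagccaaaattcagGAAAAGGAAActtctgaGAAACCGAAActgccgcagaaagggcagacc
Bst2: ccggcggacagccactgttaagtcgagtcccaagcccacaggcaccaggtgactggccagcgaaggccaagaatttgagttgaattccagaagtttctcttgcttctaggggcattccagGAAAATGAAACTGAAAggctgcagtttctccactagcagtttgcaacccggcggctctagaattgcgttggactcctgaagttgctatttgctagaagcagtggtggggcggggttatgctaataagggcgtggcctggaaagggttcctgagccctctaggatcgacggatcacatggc
Gbp3: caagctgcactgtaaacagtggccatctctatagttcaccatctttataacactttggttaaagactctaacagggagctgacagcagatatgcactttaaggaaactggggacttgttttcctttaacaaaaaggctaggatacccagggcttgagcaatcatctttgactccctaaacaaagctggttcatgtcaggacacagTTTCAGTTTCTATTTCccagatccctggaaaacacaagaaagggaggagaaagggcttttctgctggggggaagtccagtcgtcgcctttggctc
Rsad2 held 1 core match and the other genes 2 each. The cores of Bst2, GAAAATGAAA and GAAACTGAAA, overlapped each other upstream of the start, and those of Ifitm3, GAAAAGGAAA and GAAACCGAAA, lay just past the start. Among measured genes without an ISRE match, Isg20 held the GAS TTCTTGGAA upstream of its start and Irf1 the GAS TTCCCCGAA. Ifit1 held 2 ISRE cores, GAAAGTGAAA and GAAACTGAAA, upstream of its start, and the same letters occurred in the window of Ifit3. Psmb9 and Tap1 are transcribed away from each other on chromosome 17 with starts 226 bases apart, so their windows overlap by 275 bases, and neither motif matched there.

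**Figure D1:**
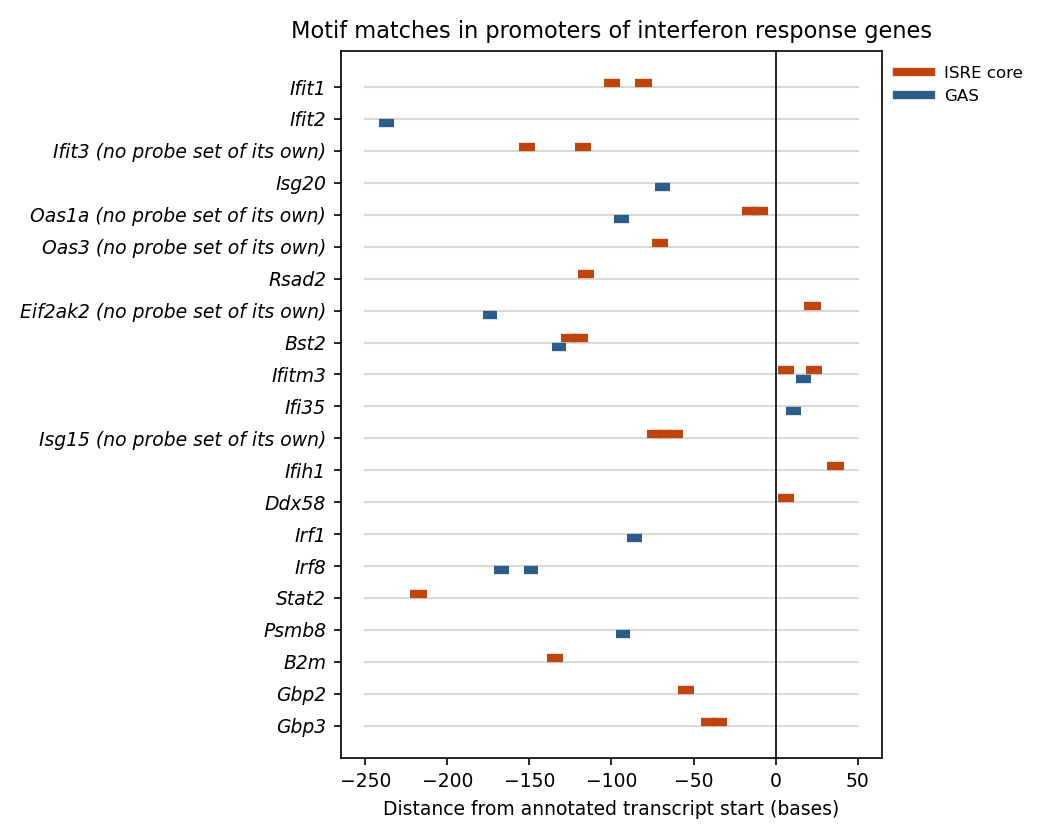
Positions of ISRE core (orange) and GAS (blue) matches relative to the annotated transcript start, in bases, for the interferon response genes with at least 1 match. Most matches lie before the start, and those of Eif2ak2 (ISRE), Ifitm3, Ifi35, Ifih1 and Ddx58 lie past it.

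On the arrays, Omp, the marker protein of mature olfactory neurons, had a mean log2 value of 13.61 over the 6 arrays, Cyp2g1 of supporting cells and glands 13.43 and Krt5 of basal cells 10.13. Array medians ranged from 7.94 to 8.12. Occluded replicate 1 differed most from the rest, with correlations of 0.977 to 0.983 to the other arrays, against 0.986 to 0.989 among those, so the difference of a gene, or the median of a role group or pathway list, that moved by over 1.5 times without it is given both ways. A set of 47 genes not expected in nose, such as those of testis, lens or pancreas, had a median of 6.13 and served as a rough guide to unspecific signal. Mx1, Mx2 and Gbp2 lay under that median and 24 of the 32 interferon response genes above the set's upper quartile of 6.81. Gbp3, Psmb8, Dhx58, Zbp1 and Oas2 lay between the median and that quartile, at mean values of 6.19 to 6.30. Values of different probe sets are not amounts that can be ranked against each other.

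No interferon response gene differed between the sides by the test over the whole array. Of the 32 measured genes, limma called 0 after Benjamini-Hochberg adjustment across the whole table, as it did 0% of all 23332 probe sets, and their adjusted p-values ran from 0.823 to 0.998. At an unadjusted p under 0.05, 1 gene was higher on the occluded side (Isg20) and 0 were lower, against 3.81% and 1.47% of all probe sets (5.28% in either direction). The sides did not overlap in 1 gene, higher on the occluded side, against 7.49% of all probe sets in that direction, and in 0 genes in the other direction, against 3.24%. The log2 differences, occluded minus contralateral, ran from -0.21 to 0.48 with a median of 0.09, beside 0.06 over all probe sets. Above 0 lay 25 of the 32, or 78.1%, beside 64.8% of all probe sets. The 95% interval held 0 in 31 genes, and it lay within 1.5-fold either way in 24 and within 2-fold in 31. A change over 2-fold in probe set signal is thus outside the interval for every measured gene except Ifitm3. For Mx1, Mx2 and Gbp2, under the background reference median, such an interval does not bound a change of the transcript. The same limit may hold for Gbp3, Psmb8, Dhx58, Zbp1 and Oas2, which lay just above that median. 

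**Figure D2:**
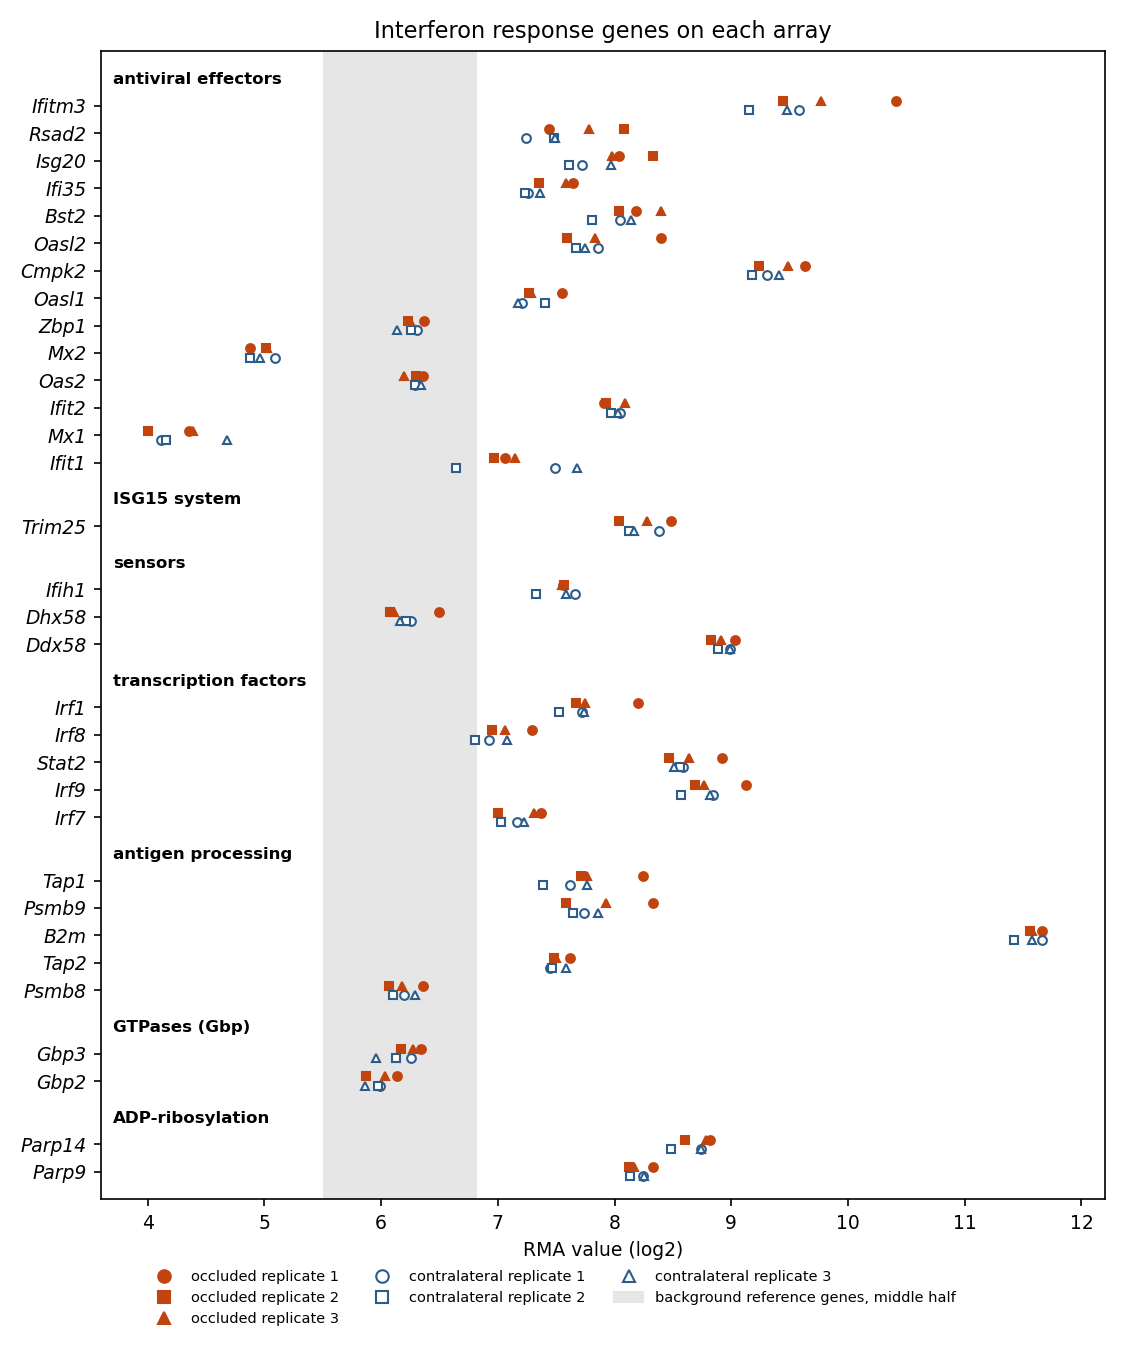
RMA values (log2) of the 32 measured interferon response genes on the occluded (filled orange) and contralateral (open blue) arrays, by role, with symbol shapes for replicates and the interquartile range of the background reference genes in grey. The sides overlap in every gene except Isg20, and occluded replicate 1 is often the rightmost point.

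Among the antiviral effectors, 14 of 19 were measured, 9 above and 5 below 0, with a median difference of 0.13, or 0.027 without occluded replicate 1. Isg20, an RNA exonuclease, had log2 values of 8.04, 8.33 and 7.98 on the occluded arrays, against 7.72, 7.61 and 7.97 on the contralateral arrays. All occluded arrays lay above all contralateral ones, though occluded and contralateral replicate 3 nearly met. The difference was 0.35 (SE 0.14), a 1.28-fold level with a 95% interval of 1.01 to 1.61, and the limma p was 0.042 before and 0.823 after adjustment. It did not stay under 0.05 without either array numbered replicate 1 or 2 (0.0526 to 0.132) or under any of the 3 other scalings (0.0943 to 0.104), and it was 0.0784 with the replicate number as a block.

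Rsad2 (viperin), which makes a nucleotide that ends viral RNA chains, had 7.44, 8.08 and 7.78 on the occluded arrays, against 7.24, 7.48 and 7.49 on the contralateral arrays. Its highest values were in occluded replicates 2 and 3 while occluded replicate 1 lay among the contralateral ones, and the difference was 0.36 (SE 0.17), or 0.52 without occluded replicate 1. Cmpk2, a nucleotide kinase whose gene is the head-to-head neighbour of Rsad2 on chromosome 12 with starts 12763 bases apart, had 9.63, 9.24 and 9.49 on the occluded arrays, against 9.31, 9.18 and 9.41 on the contralateral arrays. The neighbours differed in which array was highest, occluded replicate 2 for Rsad2 and occluded replicate 1 for Cmpk2, whose difference was 0.15 (SE 0.13), or 0.067 without that array.

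Ifitm3, a membrane protein that blocks fusion of viruses with the cell, had 10.41, 9.44 and 9.77 on the occluded arrays, against 9.58, 9.15 and 9.48 on the contralateral arrays. Its difference, 0.48 (SE 0.25), exceeded that of the other measured members but rested on occluded replicate 1, without which it was 0.21. Ifi35, a leucine zipper protein that pairs with Nmi, had 7.64, 7.35 and 7.58 on the occluded arrays, against 7.26, 7.23 and 7.36 on the contralateral arrays. Only occluded replicate 2 fell within the contralateral range, and the difference was 0.24 (SE 0.11). Bst2 (tetherin), which holds budding virus at the cell surface, had 8.18, 8.04 and 8.40 on the occluded arrays, against 8.05, 7.81 and 8.14 on the contralateral arrays. The sides overlapped, with a difference of 0.20 (SE 0.14) that was 0.22 without occluded replicate 1 but 0.11 without either occluded replicate 3 or contralateral replicate 2.

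Ifit1, which binds viral RNA that lacks the host cap marks, had 7.06, 6.97 and 7.15 on the occluded arrays, against 7.49, 6.64 and 7.68 on the contralateral arrays. The contralateral arrays spread to both sides of the occluded ones, so the difference of -0.21 (SE 0.26), the lowest of the list, was smaller than that spread. The related Ifit2 was at -0.04 (SE 0.09), or -0.0064 without occluded replicate 1. Mx1, an antiviral GTPase whose gene is defective in most laboratory mouse strains, C57BL/6 included, had 4.35, 4.0 and 4.39 on the occluded arrays, against 4.11, 4.16 and 4.68 on the contralateral arrays. Its difference was -0.07 (SE 0.19), or -0.12 without occluded replicate 1. Mx2 was at -0.01 (SE 0.10), or 0.038 without that array. Both genes lay under the background reference median, so their differences are not well measured. The oligoadenylate synthetases, which activate an RNA-cutting enzyme, and their relatives were at 0.18 (SE 0.20) for Oasl2, 0.11 (SE 0.12) for Oasl1 and -0.02 (SE 0.09) for Oas2. Oasl2 was 8.40 on occluded replicate 1 and 7.59 to 7.86 on all other arrays, and its difference without that array was -0.05, beside 0.017 for Oasl1 and -0.061 for Oas2. Zbp1, a sensor of Z-form nucleic acid that can start cell death, was at 0.05 (SE 0.09), or 0.0024 without that array.

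The RNA sensors that start interferon production had differences close to 0. Ifih1 (MDA5) was at 0.03 (SE 0.11), Ddx58 (RIG-I) at -0.04 (SE 0.09) and Dhx58 (LGP2) at 0.02 (SE 0.13). Without occluded replicate 1 Ddx58 was at -0.089, Dhx58 at -0.12 and Trim25 at -0.067. Trim25, the ubiquitin ligase that aids RIG-I and also acts in the Isg15 conjugation system, was at 0.04 (SE 0.14), with 8.04 to 8.48 on the occluded arrays and 8.12 to 8.38 on the contralateral arrays. The signs of Ifih1, Dhx58 and Trim25 turned to negative with each array centred on its median.

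All 5 transcription factors lay above 0, with differences of 0.09 to 0.21 and a median of 0.12 that was 0.022 without occluded replicate 1, and each of them was highest on occluded replicate 1. Irf1, which acts at ISRE-like sites and responds above all to interferon gamma, had 8.20, 7.67 and 7.75 on the occluded arrays, against 7.72, 7.52 and 7.74 on the contralateral arrays. Occluded replicate 1 alone was clear of the other arrays, and the difference of 0.21 (SE 0.16) was 0.05 without it. Irf8, a factor of macrophages and dendritic cells, had 7.29, 6.95 and 7.06 on the occluded arrays, against 6.92, 6.80 and 7.08 on the contralateral arrays, a difference of 0.17 (SE 0.13) that was 0.07 without occluded replicate 1. Irf7, the factor that amplifies type I interferon production, had 7.37, 7.0 and 7.31 on the occluded arrays, against 7.16, 7.03 and 7.22 on the contralateral arrays. Its difference was 0.09 (SE 0.12), with overlapping sides, or 0.022 without occluded replicate 1.

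Stat2 and Irf9 belong to the complex that binds the ISRE. Stat2 had 8.92, 8.47 and 8.64 on the occluded arrays, against 8.59, 8.56 and 8.51 on the contralateral arrays. Irf9 had 9.13, 8.69 and 8.77 on the occluded arrays, against 8.84, 8.57 and 8.82 on the contralateral arrays. The differences, 0.12 (SE 0.13) and 0.11 (SE 0.15), were 0.0020 and -0.02 without occluded replicate 1, so that array carried both.

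In antigen processing and presentation, all 5 members lay above 0, with a median difference of 0.05, while 3 of 5 did so without occluded replicate 1, with a median of 0.0083. Tap1, a subunit of the peptide transporter into the endoplasmic reticulum, had 8.24, 7.71 and 7.76 on the occluded arrays, against 7.62, 7.39 and 7.76 on the contralateral arrays. Its difference was 0.31 (SE 0.17), or 0.14 without occluded replicate 1. Psmb9, an interferon-induced proteasome subunit that shares the promoter region of Tap1, had 8.33, 7.58 and 7.93 on the occluded arrays, against 7.74, 7.64 and 7.86 on the contralateral arrays. Both were highest on occluded replicate 1, and the difference of Psmb9, 0.20 (SE 0.19), was 0.0083 without it. The partner subunit Tap2 was at 0.04 (SE 0.09), or -0.0028 without that array.

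Psmb8, the second of these inducible proteasome subunits, had 6.36, 6.07 and 6.18 on the occluded arrays, against 6.20, 6.10 and 6.29 on the contralateral arrays, and so lay close to the background reference median. Its difference was 0.0062 (SE 0.11), or -0.072 without occluded replicate 1. B2m, the invariant chain of MHC class I, had 11.66, 11.56 and 11.58 on the occluded arrays, against 11.66, 11.42 and 11.58 on the contralateral arrays. Its difference of 0.05 (SE 0.10), with a fold interval of 0.881 to 1.21, was 0.019 without occluded replicate 1. Gbp3, a guanylate-binding GTPase that attacks the vacuoles of intracellular pathogens, had 6.34, 6.17 and 6.27 on the occluded arrays, against 6.26, 6.13 and 5.96 on the contralateral arrays. It too lay close to the background reference median, and its difference was 0.14 (SE 0.11). Gbp2, under that median, was at 0.07 (SE 0.10), or 0.0087 without occluded replicate 1. Of the ADP-ribosyl transferases Parp14 was at 0.08 (SE 0.11) and Parp9 at -0.0010 (SE 0.10), or 0.038 and -0.064 without that array.

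**Figure D3:**
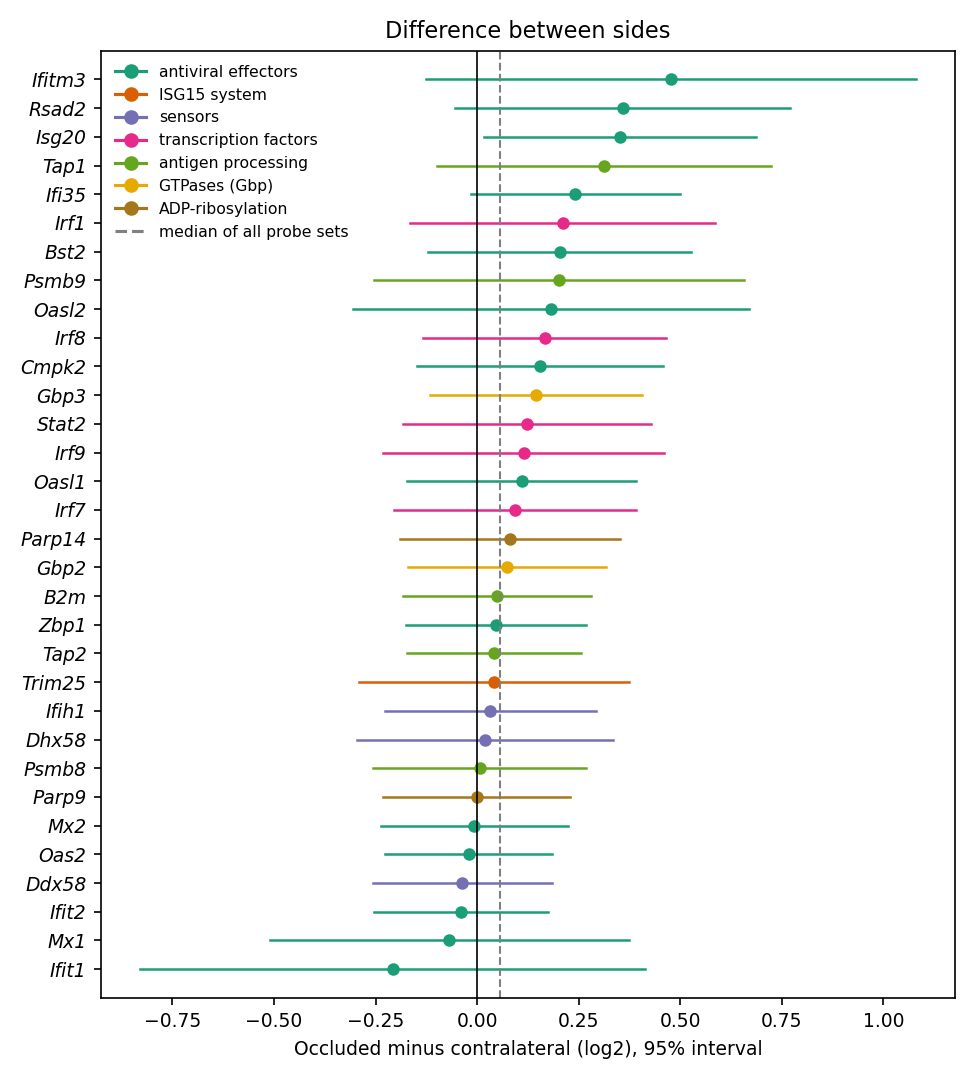
Difference between sides (occluded minus contralateral, log2) of each measured gene with its 95% interval from limma, coloured by role. Every interval except that of Isg20 holds 0, and the dashed line marks the median of all probe sets at 0.06.

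**Figure D4:**
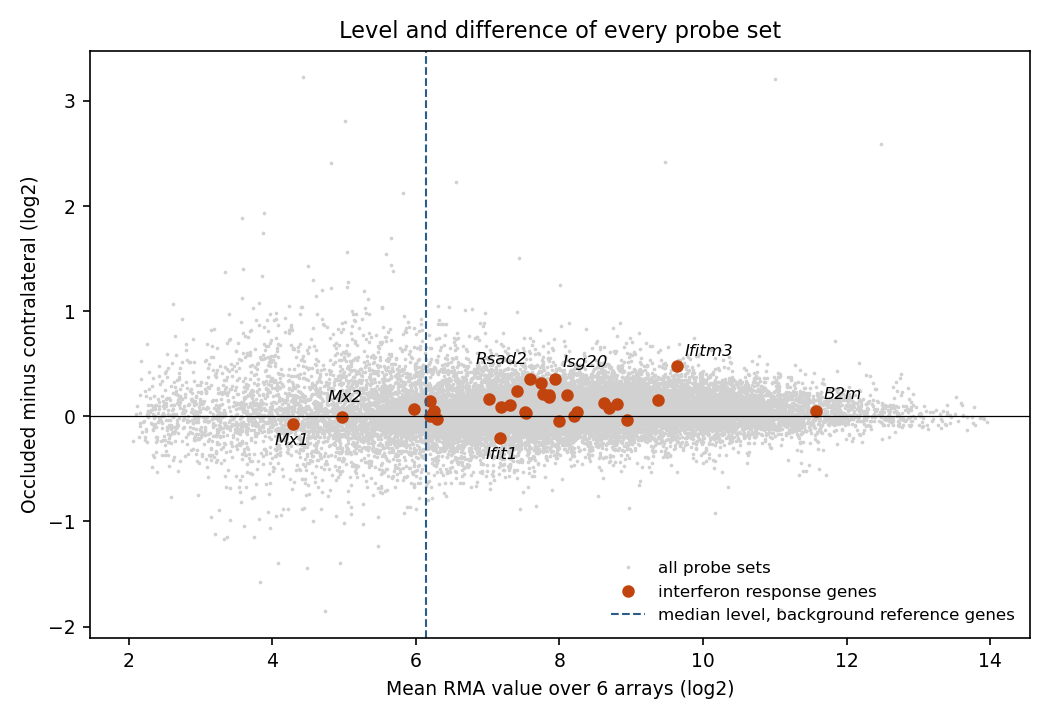
Mean RMA value over the 6 arrays (log2) against the difference between sides (log2) for all 23332 probe sets (grey) and the 32 interferon response genes (orange). The genes lie between -0.21 and 0.48, inside the grey cloud, and Mx1, Mx2 and Gbp2 lie left of the background reference median of 6.13.

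These genes differed between arrays of the same side as well as between sides, and the share of each was not tested. Of the 32 genes, 24 had their highest value on occluded replicate 1, which was also the highest array for 46.0% of all probe sets, and 13 had their lowest on contralateral replicate 2, the lowest array for 30.7% of all probe sets. Relative to each gene's own mean, the median deviation was 0.15 on occluded replicate 1, -0.09 on replicate 2 and 0.03 on replicate 3, against -0.0014, -0.14 and 0.02 on the contralateral arrays in the same order. Over all probe sets it was 0.10, -0.03 and 0.0035 on the occluded arrays, against -0.03, -0.06 and 0.01 on the contralateral arrays. Occluded replicate 2 thus lay below the genes' mean on the same side on which replicate 1 lay above it. Without occluded replicate 1, 20 of 32 genes lay above 0, or as a background 55.3% of all probe sets, and the median was 0.01 beside 0.02 over all. With each array centred on its median, 17 of 32 lay above 0 beside 43.5% of all probe sets, with a median of 0.0080 beside -0.02. Without occluded replicate 2, 28 of 32 lay above 0 beside 66.3% of all probe sets, with a median of 0.16 beside 0.082. The sides then did not overlap in 12 of 32, all higher on the occluded side, beside 20.1% of all probe sets in that direction. The replicates of the occluded side were therefore not alike for these genes, and the median was within the spread between them.

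Markers of immune and stromal cells were read on the same arrays. Of 17 macrophage and monocyte markers, 15 were measured, none under the background reference median, and their summed unlogged values ran from 4061 to 6184 on the occluded arrays and from 3221 to 3880 on the contralateral arrays. Their median deviation was 0.40 on occluded replicate 1 and -0.30 on contralateral replicate 2, the arrays at which the interferon response genes were also highest and lowest, and 14 of 15 had a difference above 0, with a median of 0.30, or 0.12 without occluded replicate 1. Endothelial markers, 12 of 12 measured, were at 0.46 and -0.30 on those arrays, with a median difference of 0.31, or 0.18 without occluded replicate 1, and with sums of 2974 to 4372 on the occluded side and 2604 to 2989 on the contralateral side. Lymphocyte markers (13 of 16 measured, 6 of them under the background median, among them Cd3d and Cd3g) had sums of 968 to 1014 on the occluded side and 988 to 1043 on the contralateral side, and dendritic and plasmacytoid markers (8 of 10 measured, Flt3 and Clec9a under that median) 2982 to 3011 and 3047 to 3168. Tcf4, at a mean log2 value of 11.02 against 8.27 or lower for the others, made up most of the dendritic sum. Bst2 of that list is also one of the interferon response genes. The median difference of the dendritic list was -0.03, or 0.0073 without occluded replicate 1. The same arrays were highest and lowest, by smaller deviations, for mature olfactory neuron markers (0.18 and -0.13), ciliated cell markers (0.21 and -0.23) and all probe sets (0.10 and -0.06). Other lists differed. Immature neuron and basal cell markers were lowest on occluded replicate 2 (-0.13 and -0.17). Lymphocyte, dendritic, B cell and supporting cell markers were highest on contralateral replicate 3 (0.069, 0.0395, 0.099 and 0.19). Neutrophil and erythroid markers were highest on occluded replicate 2 (0.18 and 0.85). The part of any of these cell types in the values above was not tested. In whole tissue, a different number of cells and a different RNA level per cell cannot be told apart.

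**Figure D5:**
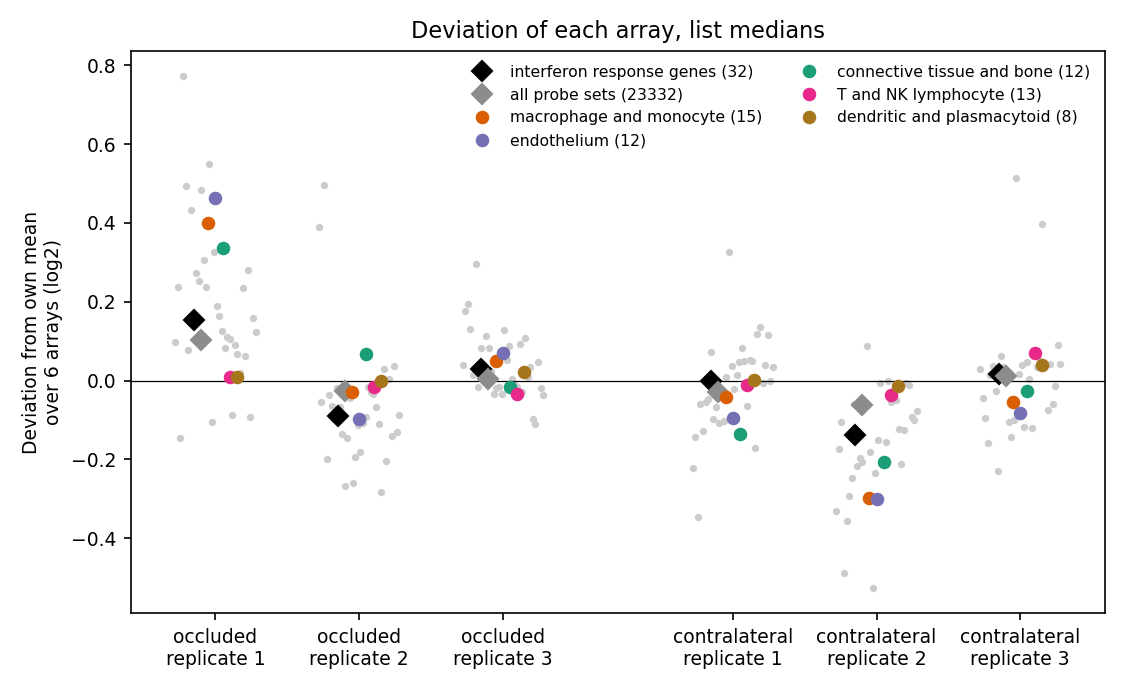
Deviation of each gene from its own mean over the 6 arrays (log2), as grey points for the 32 interferon response genes, with the medians of lists as diamonds and circles (number of genes in brackets). The interferon response genes, all probe sets and the macrophage, endothelial and connective tissue lists are highest on occluded replicate 1 and lowest on contralateral replicate 2. The lymphocyte and the dendritic and plasmacytoid lists are also lowest on contralateral replicate 2 but highest on contralateral replicate 3.

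The wider pathway was read from lists of genes by textbook role, in which limma likewise called 0 genes after adjustment. Of the interferons themselves, 9 of 21 were measured, 5 of them under the background reference median. Ifnb1, the first type I interferon made after infection, was at 0.03 (SE 0.17) and Ifng, interferon gamma, at -0.04 (SE 0.11), or 0.12 and -0.024 without occluded replicate 1. The mean log2 value of Ifnb1, 6.24, lay close to the background reference median, so its difference may be poorly measured. Ifnk, the keratinocyte interferon, was at 0.38 (SE 0.17) at a level near background. Of 10 measured receptor and kinase genes 8 lay above 0, with a median of 0.11, or 0.02 without occluded replicate 1. Ifngr1, the ligand-binding chain of the interferon gamma receptor, was at 0.33 (SE 0.13) and the 1 gene of that list at an unadjusted p under 0.05 (limma, 0.0427, 0.823 after adjustment). Its occluded values of 9.72, 9.44 and 9.36 just cleared the contralateral values of 9.11, 9.07 and 9.35. Ifngr2 was at 0.17 (SE 0.14), and the type I receptor chains Ifnar1 and Ifnar2 were at 0.08 (SE 0.11) and 0.23 (SE 0.12). Without occluded replicate 1 Ifngr2 was at 0.030, Ifnar1 at 0.00042 and Ifnar2 at 0.12.

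Genes that induce interferon had a median of 0.08 over 14 measured, or 0.020 without occluded replicate 1, with 0 at an unadjusted p under 0.05, and Mavs, the mitochondrial adaptor below the RNA sensors, was at 0.30 (SE 0.15), or 0.14 without that array. Negative regulators had a median of 0.08 over 10, which turned to -0.018 without that array, with Irf2, which competes at ISRE sites, at 0.12 (SE 0.09). A further list of 49 interferon-induced genes, 33 of them measured, had 27 above 0 and 6 below, and a median of 0.13, or 0.06 without occluded replicate 1. In that list the sides did not overlap in 7 genes, all higher on the occluded side, beside 7.49% of all probe sets in that direction. At an unadjusted p under 0.05, 2 genes were higher and 0 lower, beside 3.81% and 1.47% of all probe sets. These 2 were Ifi27, a small mitochondrial protein, at 0.33 (SE 0.13), and Cd274 (PD-L1), the ligand that restrains T cells, at 0.25 (SE 0.10), and Irgm1, a GTPase of defence against intracellular pathogens, was at 0.30 (SE 0.13). Without occluded replicate 1 they were at 0.21, 0.16 and 0.19. The chemokines Cxcl9, Cxcl10 and Cxcl11, which are among the genes most readily induced by interferon gamma, were at -0.03 (SE 0.13), -0.11 (SE 0.09) and -0.10 (SE 0.10), with Cxcl9 at 0.030 without that array. Cxcl9 and Cxcl11, at mean log2 values of 5.56 and 5.59, lay under the background reference median, so their differences are not well measured.

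Of the rest of the MHC class I pathway 8 of 16 genes were measured, 7 above 0, with a median of 0.16, or 0.091 without occluded replicate 1, and H2-K1 and H2-D1 shared their probe sets with other symbols and were not analysed here. Tapbpl, a peptide editor of class I, was at 0.33 (SE 0.13), with an unadjusted limma p of 0.0364 and 0.823 after adjustment. Psmb10, the inducible proteasome subunit that replaces Psmb7, was at 0.23 (SE 0.15) and Psmb7 at 0.12 (SE 0.11), while Psmb9 was at 0.20 (SE 0.19) and the Psmb6 it replaces at 0.26 (SE 0.11). Over the 10 measured constitutive proteasome subunits the median was 0.18, with 9 above 0. Without occluded replicate 1 Psmb10 was at 0.11 and Psmb7 at 0.039. Differences between the inducible and constitutive subunits were not tested.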

How the data were processed

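Log2 expression values were analysed as deposited. Per the labels, the authors ran RMA (Expression Console, core-gene setting) on an Affymetrix exon array for mouse; RMA corrects background, aligns arrays and summarises probes, which can shrink small differences, and the annotation build and version are not given in the sources used here. Gene names came from the annotation of the platform: of 23332 probe sets, 14996 carried 1 symbol, 1019 several and 7317 none, and none was named from several. Arrays have no read depth, and their number limits the precision.

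The difference between sides was estimated for every probe set at once by limma 3.58.1 (R 4.3.3), without a block for the replicate number. P-values were two-sided and were adjusted by Benjamini-Hochberg across the table, at a threshold of 0.05. The labels do not say whether a number shared by the sides marks 1 mouse. Between same-numbered arrays, deviations from the group means correlated at 0.0095, 0.17 and -0.04, which with 3 arrays per side cannot settle it. Each of the 32 measured members had 1 probe set. The members and lists were chosen with earlier results of these data known, and no list was tested as a set. Values were given in full for the 10 members with the smallest p and for the landmarks Ifit1, Irf7, Irf9, Stat2, Mx1, B2m and Psmb8. Isg15, also a landmark, had no entry in the annotation used. For context lists the 3 smallest p could be named. Psmb9, the Oasl2 range, the chemokines and the proteasome counterparts were added after their values had been seen. Marker lists of neutrophils, B cells, connective tissue, erythroid cells, neurons, supporting, basal and ciliated cells had median log2 differences of 0.27, 0.0041, 0.29, 0.54, 0.15 (mature) and -0.03 (immature), -0.06, 0.04 and 0.27. Without occluded replicate 1 they were 0.17, -0.0072, 0.17, 0.74, 0.096 (mature) and -0.050 (immature), -0.050, -0.055 and 0.21 in the same order. Of the erythroid list, 3 of 8 genes were measured.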

Additional observations from a re-analysis of the deposited data

How the results depend on the processing

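No member passed the adjusted threshold in any of the 17 alternatives or at an adjusted p under 0.1 or 0.2, and 15 of the 32 members kept the sign of their difference in every alternative that tested them. The other 17, whose main differences were at most 0.18 in size (Oasl2), turned in 51 of 533 values; the cause was not tested. The alternative of a second probe set per gene could not be run, since no member had one. Isg20 lost its unadjusted p under 0.05 in 8 alternatives and kept its sign in all 17.

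With the replicate number as a block, 2 of 32 members (Rsad2 and Ifitm3, not Isg20) were higher at an unadjusted p under 0.05, beside 3.81% of all probe sets. No member passed the adjusted threshold. With array medians set equal, the unadjusted threshold of 0.05 was met by 510 probe sets above 0 and 873 below, against 890 and 343 as deposited, and 0 members were higher; 0 members lay clear above and 2 clear below the contralateral arrays, beside 3.79% and 9.38% of all probe sets. Quantile normalization once more gave 622 lower probe sets, 0 higher members, 0 clear above and 1 clear below (5.28% and 6.31% of all probe sets), and cyclic loess 535 and 0, with 1 clear above and 2 clear below (6.55% and 5.62%). Testing probe sets with 1 symbol only gave 1 adjusted call, no member, with 161 lower probe sets, from fewer probe sets tested. In that setting 2 of 32 members (Isg20 and Ifi35) were higher, beside 4.95% of the probe sets tested. Array weights, whose estimation did not converge, gave occluded replicate 1 a weight of 0.217 and occluded replicate 3 one of 7.02. They led to 62 adjusted calls and to 3470 higher and 1941 lower probe sets. With these weights 5 of 32 members were higher, beside 14.9% of all probe sets.

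Leaving out 1 array gave 0 to 1 adjusted calls, 515 to 1209 higher probe sets, 0 to 3 higher and 0 to 1 lower members at an unadjusted p under 0.05, 1 to 12 members clear above and 0 to 2 clear below, beside 9.99% to 21.5% and 5.94% to 7.83% of all probe sets. The 3 higher members (Ifitm3, Ifi35 and Psmb9, beside 5.18% of all probe sets) and the 12 clear ones (beside 20.1%) came without occluded replicate 2. The lower member, Ifit1, came without contralateral replicate 2, beside 1.13% of all probe sets. With 2 arrays against 3, sides overlap less often by construction.

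Signs that turned with centring were those of Zbp1 (-0.032), Trim25 (-0.038), Ifih1 (-0.046), Dhx58 (-0.060), Psmb8 (-0.073), Tap2 (-0.038), B2m (-0.030) and Gbp2 (-0.0054). With quantile normalization they were Trim25 (-0.032), Ifih1 (-0.028), Dhx58 (-0.0085), Psmb8 (-0.017), Tap2 (-0.016) and Parp14 (-0.0069), and with cyclic loess Trim25 (-0.043), Ifih1 (-0.023), Psmb8 (-0.0016), Tap2 (-0.013) and Parp14 (-0.011). Array weights turned Ifit2 (0.041), Mx1 (0.16), Zbp1 (-0.022), Trim25 (-0.028), Ifih1 (-0.027), Dhx58 (-0.12), Irf9 (-0.0056), Psmb8 (-0.015) and B2m (-0.012). Over the arrays left out, the difference ranged from -0.17 to 0.11 for Mx1, -0.055 to 0.050 for Mx2, -0.061 to 0.024 for Oas2, -0.049 to 0.36 for Oasl2, -0.0023 to 0.083 for Zbp1, -0.067 to 0.15 for Trim25, -0.066 to 0.10 for Ifih1, -0.089 to 0.0095 for Ddx58, -0.12 to 0.093 for Dhx58, -0.018 to 0.20 for Irf9, -0.072 to 0.073 for Psmb8, -0.0028 to 0.083 for Tap2, -0.017 to 0.10 for B2m, -0.064 to 0.044 for Parp9 and -0.0051 to 0.15 for Parp14.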

Other observations

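MHC class II genes, which present antigen taken up by macrophages, dendritic cells and B cells and which interferon gamma induces through Ciita, were read as a list of 10, of which 6 were measured. Their median log2 difference, occluded minus contralateral, was 0.04, with 3 above and 3 below 0, and -0.04 without occluded replicate 1. H2-Ab1, a class II beta chain, was at 0.39 (SE 0.22), its alpha chain partner H2-Aa at 0.09 (SE 0.18), and the invariant chain Cd74 at 0.10 (SE 0.19), or 0.17, -0.025 and -0.093 without that array; none passed limma over all probe sets.

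Measured interferon response genes with an ISRE core in their promoter window had a median difference of 0.10 over 10 genes, 8 of them above 0, and those with a window but no match 0.16 over 14 genes, 13 above 0. With the GAS the medians were 0.21 over 8 genes, 7 of them above 0, and 0.11 over 16 genes without it, 14 above 0. These splits were not tested.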
